A study of Homo sapiens with 10 samples.

Results

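CLASP1, KNTC1, SKA3, ZWINT, AURKB and SGO2 encode proteins of the outer kinetochore and of centromeric cohesion, and their transcripts were followed in 10 clones of PC-3, a human prostate cancer line. They are 6 of 14884 genes that could be named on the array, each read by 1 probe set. The 6 genes were chosen by their measured difference between the 2 groups of clones, having passed that comparison in these same arrays, so the group differences of these genes are given as descriptions, without a test. PC-3 is an established line that came from a bone metastasis. The clones of one group carried a lentiviral vector with CENPU, a subunit of the inner centromere network, and those of the other group carried the same kind of vector without an insert. All clones had gone through blasticidin selection and were grown as single isolates, so each array stands for 1 clone and clone-specific features are part of the spread. The CENPU group held clones 1, 4, 5, 7 and 13, and the control group clones 1 to 5. The sources used here do not name the promoter that drives CENPU in the vector.

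The kinetochore is the protein structure that links a chromosome to spindle microtubules in mitosis. Its outer part holds the KMN network, in which KNL1 and its partner ZWINT offer a platform for the RZZ complex and checkpoint proteins and the Ndc80 complex grips the microtubule. The Ska complex, with SKA3 as a subunit, strengthens that grip, ROD (the product of KNTC1) is the large subunit of RZZ, and CLASP1 adds tubulin at microtubule plus ends. AURKB, the kinase of the chromosomal passenger complex, releases faulty attachments, and SGO2, a shugoshin, brings a phosphatase that guards centromeric cohesin. Many of these genes are transcribed mainly in G2 and M phase, so their RNA levels in growing cultures also follow the share of dividing cells.

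The arrays gave log2 expression values for 53617 probe sets, with array medians from 4.62 to 4.76. The CENPU transcript ran from 8.70 to 9.84 in the clones that carried it and from 5.78 to 6.56 in the controls, a log2 difference of 3.08 with a standard error of 0.20. Standard errors of differences are throughout those of the limma fit, in which the variance of each gene is drawn toward a common value. The keratin rows KRT18 and KRT19 lay between 10.2 and 11.2 in every clone. Other rows of the same marker list were dimmer, with the keratin KRT8 at 6.36 to 7.07, EPCAM at 5.745 to 7.62 and CD44 at 5.887 to 6.98. The prostate kallikreins KLK3 and KLK2, which PC-3 is known to lack, stayed between 5.33 and 5.78, and the fibroblast genes DCN and LUM between 2.55 and 3.13. Of 7 epithelial and PC-3 markers 6 were measured, and 1 of them, the intermediate filament gene VIM, passed the comparison (log2 difference 0.74). The adhesion gene EPCAM had a difference of 0.85 and did not pass (limma adjusted p = 0.0839), and VIM and EPCAM were the 2 of these markers with an unadjusted p under 0.05. Markers of leukocytes (2 of 5 measured, 4.01 to 10.8) and endothelium (3 of 4 measured, 4.18 to 10.5) held bright rows, CD68 and KDR, and 0 of those markers passed in limma, nor did any have an unadjusted p under 0.05. In bulk RNA, fewer dividing cells and less RNA per dividing cell cannot be told apart.

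Promoter sequence was taken from RefSeq (GRCh38.p14), whose windows of 300 bases run from 250 before to 50 after an annotated start, and it was matched for 5 of the 6 genes, all but KNTC1. The printed stretches are shown because these 4 genes include both that were lower and a pair that was higher in CENPU clones. Each runs 5′ to 3′ on the gene's own strand from 200 bases before the start to 30 after it. Capitals mark the words TTTGAA (the CHR element of G2 and M phase genes) and CCAAT (the NF-Y box) on either strand, so that TTCAAA and ATTGG are their reverse forms. ZWINT (chr10:56361230-56361459, minus strand), SKA3 (chr13:21176523-21176752, minus strand), AURKB (chr17:8210196-8210425, minus strand) and SGO2 (chr2:200525942-200526171, plus strand) read as follows.
ZWINT: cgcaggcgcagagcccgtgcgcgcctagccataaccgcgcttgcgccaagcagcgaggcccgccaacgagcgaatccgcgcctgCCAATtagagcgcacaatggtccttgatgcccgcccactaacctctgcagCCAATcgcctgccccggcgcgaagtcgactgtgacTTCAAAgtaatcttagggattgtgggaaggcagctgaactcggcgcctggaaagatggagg
SKA3: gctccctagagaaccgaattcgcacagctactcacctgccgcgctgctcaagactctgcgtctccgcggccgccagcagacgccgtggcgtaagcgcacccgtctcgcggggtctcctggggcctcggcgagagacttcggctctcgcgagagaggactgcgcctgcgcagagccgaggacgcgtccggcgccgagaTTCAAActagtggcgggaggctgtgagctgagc
AURKB: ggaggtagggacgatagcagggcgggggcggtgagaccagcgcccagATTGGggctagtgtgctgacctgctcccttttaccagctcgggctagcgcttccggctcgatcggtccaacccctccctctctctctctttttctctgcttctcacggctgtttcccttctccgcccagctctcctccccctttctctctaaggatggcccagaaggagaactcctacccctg
SGO2: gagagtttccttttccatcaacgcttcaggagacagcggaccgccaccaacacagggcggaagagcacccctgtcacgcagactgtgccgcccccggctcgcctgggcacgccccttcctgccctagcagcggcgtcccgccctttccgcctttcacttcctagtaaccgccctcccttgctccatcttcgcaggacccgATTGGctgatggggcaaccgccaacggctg

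TTTGAA, searched on both strands, was present in the windows of ZWINT and SKA3, that is in 2 of the 5 matched genes, against 18.2% of the 27305 genes in the table (3 of the 8 windows of the 5 genes, against 15.2% of all 35116 windows). CCAAT was present in those of ZWINT, AURKB, SGO2 and CLASP1, 4 of the 5 genes, against 39.7% of all genes (7 of the 8 windows, against 34.6% of all windows). In ZWINT the TTTGAA match lay at position -31 and the 2 CCAAT matches at positions -116 and -66 from the start used above. In SKA3 the TTTGAA match lay at position -3. The E2F words TTTCCCGC, TTTGGCGC, TTTCGCGC and TTTGCCGC, of which at least 1 was present for 3.99% of genes and in 3.31% of windows, were found in 0 of the 5 genes. The words did not divide the genes by direction, as ZWINT was lower and SKA3 higher in CENPU clones.

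Of the 6 genes, CLASP1, KNTC1, SKA3 and SGO2 were higher and ZWINT and AURKB lower in CENPU clones. All 6 had passed limma at an adjusted p under 0.05, the fact that chose them, where 10.1% of all genes did, 5.31% as higher and 4.79% as lower. For 4 of them, CLASP1, SKA3, ZWINT and SGO2, the ranges of the 2 groups were apart, against 9.73% of all genes. KNTC1 was the closest to the threshold from within (limma adjusted p = 0.0495). Among the other genes of the complexes that did not pass, SMC3, a cohesin subunit gene (limma adjusted p = 0.0663), was the nearest outside, followed by KNL1 (limma adjusted p = 0.0701).

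CLASP1, the plus-end protein, read 7.40, 7.38, 7.82, 7.96 and 8.32 in CENPU clones 1, 4, 5, 7 and 13. Its values in control clones 1 to 5 were 7.02, 6.37, 6.96, 6.76 and 6.71. Every CENPU clone lay above every control, with a gap of 0.367 between the nearest pair, and CENPU clones 1 and 4 lay closest to the controls. The means of 7.78 ± 0.40 and 6.76 ± 0.26 (SD, n = 5 each) differed by 1.01 with a standard error of 0.19, or 2.02-fold, the largest difference of the 6 genes.

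KNTC1 read 6.21, 6.86, 7.26, 7.50 and 7.87 in CENPU clones 1, 4, 5, 7 and 13. In control clones 1 to 5 it read 6.31, 5.57, 5.99, 6.38 and 6.55. The groups overlapped, because CENPU clone 1 lay below 3 of the controls, and its CENPU clones spread over 1.66 log2 units, the widest range of the 6 genes. The means of 7.14 ± 0.64 and 6.16 ± 0.39 (SD, n = 5 each) differed by 0.98 with a standard error of 0.28, or 1.98-fold. Without CENPU clone 1 the difference was 1.22, and without CENPU clone 13 it was 0.80.

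SKA3 read 7.41, 7.16, 7.90, 8.01 and 8.09 in CENPU clones 1, 4, 5, 7 and 13. Its controls 1 to 5 lay close together, at 7.06, 6.74, 6.89, 7.00 and 7.02. The CENPU clones fell into a lower pair, 4 and 1, and a higher set, 5, 7 and 13, and the gap from CENPU clone 4 to the highest control was 0.0999. The means of 7.71 ± 0.41 and 6.94 ± 0.13 (SD, n = 5 each) differed by 0.77 with a standard error of 0.17, or 1.71-fold.

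ZWINT, the KNL1 partner, was the steadiest of the 6 genes among CENPU clones. It read 8.20, 8.03, 8.22, 8.09 and 8.14 in CENPU clones 1, 4, 5, 7 and 13, and 8.88, 8.68, 8.34, 8.78 and 8.62 in control clones 1 to 5. Every CENPU clone lay below every control, with a gap of 0.118 to control clone 3, the lowest of its group. The means of 8.14 ± 0.08 and 8.66 ± 0.21 (SD, n = 5 each) differed by -0.53 with a standard error of 0.11, that is 1.44-fold lower in CENPU clones.

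AURKB, the passenger complex kinase, read 9.34, 9.10, 8.96, 8.80 and 8.75 in CENPU clones 1, 4, 5, 7 and 13. Control clones 1, 2, 4 and 5 read 9.90, 9.72, 9.83 and 9.86, whereas control clone 3 read 9.25. The groups overlapped through that clone, since CENPU clone 1 lay above it. The means of 8.99 ± 0.24 and 9.71 ± 0.27 (SD, n = 5 each) differed by -0.72 with a standard error of 0.15, that is 1.65-fold lower in CENPU clones. Without control clone 3 the difference was -0.84, and without CENPU clone 13 it was -0.66.

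SGO2, the shugoshin, had the dimmest row of the 6 genes, and 42.9% of all rows had a mean at or below its own. It read 4.47, 4.57, 4.67, 4.36 and 4.90 in CENPU clones 1, 4, 5, 7 and 13, and 4.02, 3.76, 4.15, 3.84 and 4.22 in control clones 1 to 5. The groups did not overlap, with a gap of 0.138 between CENPU clone 7 and control clone 5. The means of 4.59 ± 0.21 and 4.00 ± 0.20 (SD, n = 5 each) differed by 0.60 with a standard error of 0.13, or 1.51-fold. All its values lay below those of KLK3 and KLK2 (5.33 to 5.78), which PC-3 is known to lack. Whether the row reads SGO2 transcript above background was not tested. Background signal can make differences of dim rows too small, and it was not measured for single probes here.

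**Figure D1:**
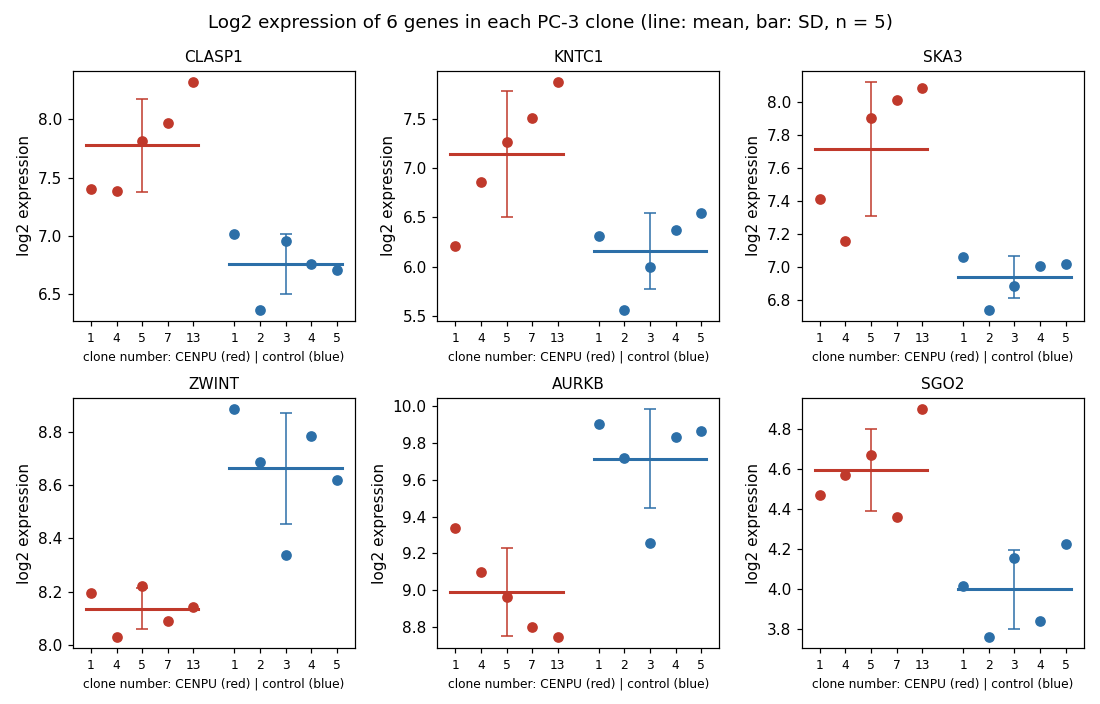
Log2 expression (y axis) of the 6 genes in each clone (x axis, clone number), with CENPU clones in red and control clones in blue, the line at the group mean and the bar 1 SD (n = 5). CLASP1, SKA3 and SGO2 are separated upward and ZWINT downward in CENPU clones, while KNTC1 overlaps through CENPU clone 1 and AURKB through control clone 3.

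The same complexes held 45 other measured genes in 8 lists, which had 77 entries in all. Of these 45, CKAP5, KIF2A, KIF18A, SPAG5 and NIPBL rose, CDCA5 fell and 39 did not pass (limma, Benjamini-Hochberg). That is 13.3% of them, against 10.1% of all genes, and 25 of the 45 had an unadjusted p under 0.05, or 55.6% against 27.9% of all genes. Their median log2 difference was 0.38, against -0.02 over all named genes, with 32 above and 13 below 0. With 1 clone left out, the share at an unadjusted p under 0.05 ran from 28.9% without CENPU clone 7 (22.4% of all genes) to 60% without CENPU clone 1 (33.4%). It was 26.7% against 18.2% without control 2, CENPU 7 and CENPU 13. With the span trend removed, a tilt by gene length described further on, it was 51.1% against 32%, with a median of 0.24. Only CKAP5 passed in each fit that left out 1 clone, in which 1 to 14 of the 45 genes passed, with the lowest count when CENPU clone 5, 7 or 13 or control clone 2 or 4 was absent and the highest without CENPU clone 1, and 2 passed without control clone 3 or 5. KIF2A passed in 4 of these 10 fits, SPAG5 in 3, and KIF18A, NIPBL and CDCA5 in 2 each. Without control 2, CENPU 7 and CENPU 13, the 3 clones with the strongest tilt by gene length described further on, CKAP5 and the cohesin acetyltransferase gene ESCO2 passed, and the median was 0.11. For ESCO2 these were the lowest control and the highest CENPU clones, so its difference widens by construction.

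Of 10 genes listed for the KMN network 3 were measured. ZWINT differed in sign from KNL1 and NDC80, the 2 other measured genes, neither of which passed. KNL1, the scaffold that binds ZWINT, had a log2 difference of 1.14 with a standard error of 0.37, and its CENPU clones ran from 5.65 to 7.71 and its controls from 4.60 to 5.71. NDC80, the microtubule-binding subunit, had a difference of 1.12 with a standard error of 0.37 (limma adjusted p = 0.0798). Their values overlapped between the groups in both cases. Without control 2, CENPU 7 and CENPU 13 the differences were 0.42 for KNL1 and 0.41 for NDC80, while that of ZWINT was -0.51. For KNL1 and NDC80, but not for ZWINT, these were the lowest control and the highest CENPU clones. The differences of KNL1 and NDC80 therefore narrow by construction.

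The Ska complex was measured in full. Beside SKA3 (0.77), SKA2 had a log2 difference of 0.24 with a standard error of 0.26 and SKA1 of -0.19 with a standard error of 0.33, and neither passed (limma adjusted p = 0.587 and 0.745). SKA2 ran from 6.94 to 8.29 in CENPU clones and from 6.99 to 7.79 in controls, so the groups overlapped over most of their range. Of 9 genes listed for the RZZ complex and its corona 4 were measured, and the other RZZ subunit genes, ZW10 and ZWILCH, were not. Around KNTC1, the dynein adaptor SPDL1 had a difference of 0.65, and the dynein regulators NDEL1 and NDE1 of 0.18 and -0.11, and 0 of these 3 passed in limma (adjusted p from 0.159 to 0.541, with 1 of them at an unadjusted p under 0.05).

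Among plus-end and spindle proteins at the kinetochore, 4 of the 9 genes besides CLASP1 rose, 0 fell and 5 did not pass. CKAP5, a microtubule polymerase, rose by 1.50 with a standard error of 0.31, 2.83-fold (limma adjusted p = 0.0144). Its CENPU clones ran from 8.65 in clone 1 to 10.2 in clone 13, above all controls, of which clones 1, 3, 4 and 5 lay between 8.03 and 8.12 and clone 2 at 7.02. KIF2A, a depolymerising kinesin, rose by 1.16 (standard error 0.29, limma adjusted p = 0.0274). KIF18A, which damps chromosome movement at plus ends, rose by 0.76, and SPAG5, which tethers microtubule ends, by 0.69, with overlapping groups in both (limma adjusted p = 0.0457 and 0.0413), and neither passed after median centring (limma adjusted p = 0.0647 and 0.0538). KIF18A was dim, at 4.40 to 5.68 in CENPU clones and 3.84 to 4.46 in controls, and whether it lay above background was not tested. After quantile normalization KIF18A did not pass (limma adjusted p = 0.0508). CLASP2, the paralogue of CLASP1, had a difference of 0.46 and did not pass (limma adjusted p = 0.12).

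The other 4 genes of the chromosomal passenger complex did not pass, and 0 had an unadjusted limma p under 0.05. INCENP, its scaffold, had a log2 difference of -0.01, BIRC5 (survivin) of -0.11, CDCA8 (borealin) of -0.16 and the kinase paralogue AURKC of 0.16, with standard errors from 0.11 to 0.22, beside -0.72 for AURKB. INCENP ran from 8.26 to 8.42 in CENPU clones and from 7.90 to 8.66 in controls, so its controls spread on both sides of the CENPU clones.

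In centromeric cohesion, SGO1, the mitotic shugoshin, had a difference of 0.63 with a standard error of 0.32 and did not pass, close in size to that of SGO2 (0.60). CDCA5, encoding sororin, which keeps cohesin on chromatin, fell by 0.46 (standard error 0.13, limma adjusted p = 0.0413), and HASPIN, the histone kinase that marks centromeres for the passenger complex, had a difference of -0.28. Of 13 cohesin genes, NIPBL, the cohesin loader, rose by 1.22 (standard error 0.31, limma adjusted p = 0.0324) and 12 did not pass, among them the core subunits SMC3 (0.93) and RAD21 (0.48) and the release factor WAPL (0.72). None of the 9 spindle checkpoint genes passed in limma, with a median of 0.54 and 5 at an unadjusted p under 0.05 (27.9% of all genes). Among those 5 were the kinase genes TTK and BUB1 and the checkpoint gene BUB1B, with differences of 1.09, 0.91 and 0.55 (limma adjusted p = 0.0997, 0.116 and 0.099). The others were BUB3 (0.54) and MAD1L1, which was lower in CENPU clones (-0.27).

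**Figure D2:**
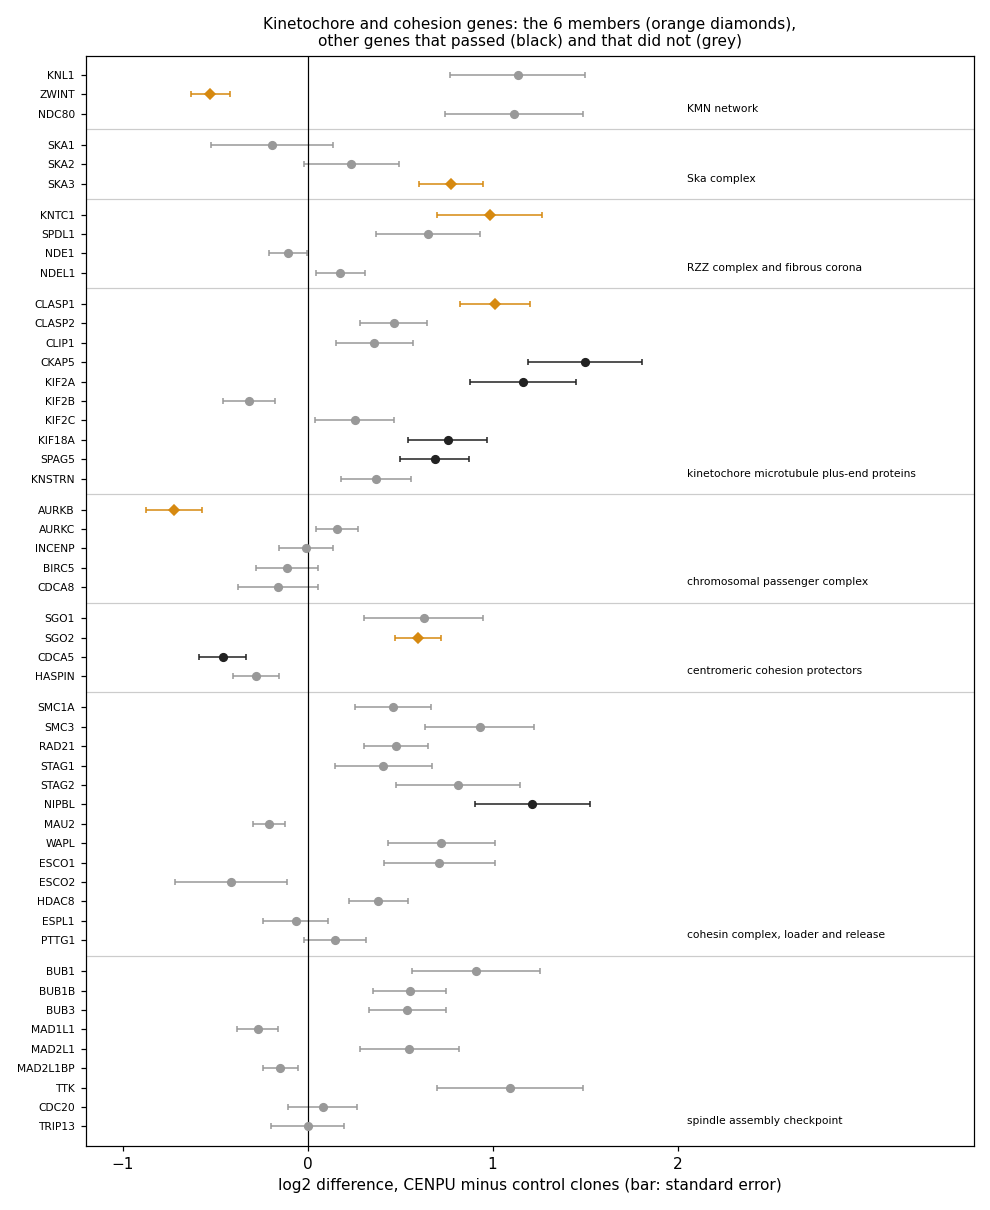
Log2 difference, CENPU minus control clones (x axis, bar 1 standard error), for the 51 measured genes of 8 kinetochore and cohesion lists (y axis), with the 6 chosen genes as orange diamonds, others that passed in black and those that did not in grey. ZWINT and AURKB lie left of 0 beside KNL1 at 1.14 and INCENP at -0.01.

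Within each group the clones were not spread alike for the 6 genes. CENPU clone 13 was the highest of its group for 4 genes, CLASP1, KNTC1, SKA3 and SGO2, and the lowest for AURKB. Control clone 2 was the lowest control for the same 4 genes, and control clone 3 for ZWINT and AURKB. These orders were measured with the group mean subtracted from each clone, which takes out the group difference that chose the genes. In all 37 relations were computed over the 10 clones, and each was tested by an exact two-sided permutation of clones within groups (14400 pairings), with Benjamini-Hochberg adjustment over the 37 and Spearman's rho taken on ranks within groups. Where r is given without 2 clones, the deviations were not centred again, so part of such an r can come from an offset between the groups.

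SKA3 went with its complex partner SKA2 across clones (Pearson r = 0.930, exact permutation p = 6.94e-05, the smallest these pairings allow, adjusted p = 0.00257). Spearman's rho was 1, with exact permutation p = 0.000139 and adjusted p = 0.00514, and r was 0.871 without CENPU clones 4 and 13, those farthest from the median of SKA2. The clones of both groups thus ranked identically for SKA3 and SKA2, although SKA2 did not pass between the groups. A relation of this strength was not particular to SKA2, as 354 of 11915 protein-coding genes had r over 0.9 with SKA3. With SKA1, the remaining Ska subunit gene, SKA3 had r = 0.514 (exact permutation p = 0.108, adjusted p = 0.249), or 0.0898 without control clone 2 and CENPU clone 4. Spearman's rho for SKA3 with SKA1 was 0.85 (exact permutation p = 0.00931, adjusted p = 0.0788).

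AURKB went with the passenger complex subunits INCENP, BIRC5 and CDCA8. Higher values were found elsewhere, as 24 of 11915 protein-coding genes had r over 0.9 with AURKB. How many of all genes reached the r of these subunits was not counted. For INCENP r was 0.746 (exact permutation p = 0.000139, adjusted p = 0.00257) and rho 0.95 (exact permutation p = 0.00125, adjusted p = 0.0231). For BIRC5 r was 0.823 and for CDCA8 0.795, at an exact permutation p of 0.00806 and 0.00903 and an adjusted p of 0.0477 for both, and rho was 0.8 for both (exact permutation p = 0.0192, adjusted p = 0.0788). Without control clone 3 and the second farthest clone, r was 0.525 for INCENP, 0.672 for BIRC5 and 0.723 for CDCA8, so these relations rest in part on control clone 3, where all 4 genes were at their lowest among controls. After quantile normalization r was 0.835 for INCENP (exact permutation adjusted p = 0.0103), 0.782 for BIRC5 and 0.787 for CDCA8 (exact permutation adjusted p = 0.0694 for both). ZWINT showed no such relation with its KMN partners, with r of -0.01 for KNL1 and -0.17 for NDC80 (exact permutation p = 0.98 and 0.664, adjusted p = 0.98 and 0.793). SGO2 with SGO1, CLASP1 with CLASP2 and KNTC1 with SPDL1 had r of 0.542, 0.739 and 0.672. Their exact permutation p was 0.137, 0.0402 and 0.0717, and the adjusted p 0.282, 0.135 and 0.204. Of the 10 partner pairs tested, 4 had an adjusted p under 0.05 by r.

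Among the 15 pairs of the 6 genes, CLASP1 with SKA3 had r = 0.858 (exact permutation p = 0.00562, adjusted p = 0.0416) and rho = 0.8 (exact permutation p = 0.0192, adjusted p = 0.0788), and r was 0.786 without CENPU clones 4 and 1. After quantile normalization that pair had r = 0.763 (exact permutation adjusted p = 0.12). CLASP1 with KNTC1 and KNTC1 with SKA3 had r of 0.815 and 0.809 (exact permutation p = 0.0136 and 0.0144, adjusted p = 0.0532 for both). AURKB with ZWINT had r = 0.673 (exact permutation p = 0.0609, adjusted p = 0.188). None of the 6 genes followed the CENPU level itself within groups at an adjusted p under 0.05, with r from -0.15 for ZWINT to 0.53 for SGO2 (exact permutation p = 0.646 and 0.151, adjusted p = 0.793 and 0.292).

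A feature of the whole arrays moved with these orders. In each clone the deviation of protein-coding genes from their mean over all clones was correlated with the genomic span of the gene, and the Spearman value, called the span trend here, ran from -0.16 in CENPU clone 1 to 0.36 in CENPU clone 13 and from -0.36 in control clone 2 to -0.09 in control clone 1. It is a correlation across 11916 genes, which are not independent replicates. With group means taken out, CLASP1 went with the span trend over the 10 clones (r = 0.919, exact permutation p = 0.00132, adjusted p = 0.0163; rho = 0.9, exact permutation p = 0.00431, adjusted p = 0.0531). KNTC1 had r = 0.889 (exact permutation p = 0.00333, adjusted p = 0.0308) and rho = 0.6 (exact permutation p = 0.109, adjusted p = 0.31), and SKA3 had r = 0.878 (exact permutation p = 0.0131, adjusted p = 0.0532). Without CENPU clones 1 and 4, r was 0.895 for CLASP1, 0.787 for KNTC1 and 0.883 for SKA3. The CENPU clones left, 5, 7 and 13, all lay above their group mean for these genes, so these r values can hold a group offset. ZWINT had r = -0.02, AURKB -0.60 and SGO2 0.48 (exact permutation p = 0.947, 0.0779 and 0.195, adjusted p = 0.98, 0.206 and 0.343).

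With the span trend taken out of both genes of a pair, r was 0.27 for CLASP1 with SKA3, -0.01 for CLASP1 with KNTC1 and 0.13 for KNTC1 with SKA3. It was 0.73 for SKA3 with SKA2, 0.96, 0.91 and 0.86 for AURKB with INCENP, BIRC5 and CDCA8, and 0.83 for AURKB with ZWINT. These residual values are descriptions over 10 clones, and no test was made of them.

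**Figure D3:**
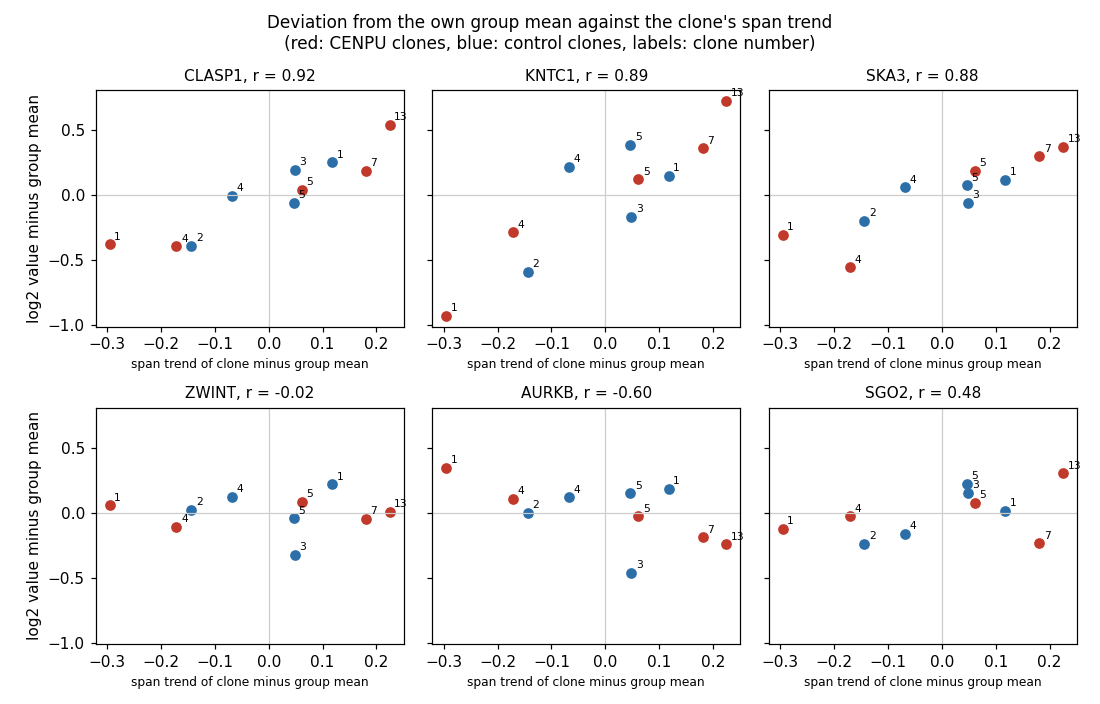
Log2 value minus the mean of the clone's own group (y axis) against the clone's span trend minus its group mean (x axis, a difference of Spearman correlations), 1 point per clone, red for CENPU and blue for control clones, labelled by clone number. CLASP1, KNTC1 and SKA3 climb along the trend with r of 0.92, 0.89 and 0.88, ZWINT is flat at -0.02 and AURKB slopes down at -0.60.

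The 2 lower genes are short, and of the 4 higher ones 2 are long. ZWINT spans 4.05 kb and AURKB 5.84 kb, both in the shortest quintile of protein-coding genes, in which 52 genes were higher and 200 lower. CLASP1 spans 312 kb and KNTC1 99.1 kb, both in the longest quintile, in which 273 were higher and 41 lower. SKA3 (23.0 kb) and SGO2 (58.0 kb) lie in quintiles 3 and 4. The median log2 difference was -0.11 in the shortest and 0.13 in the longest quintile. With the trend removed from each array by loess, the higher genes CLASP1, KNTC1, SKA3 and SGO2 differed by 0.81, 0.76, 0.73 and 0.42, and the lower genes ZWINT and AURKB by -0.41 and -0.62. What part the trend has in the group differences was not tested.

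**Figure D4:**
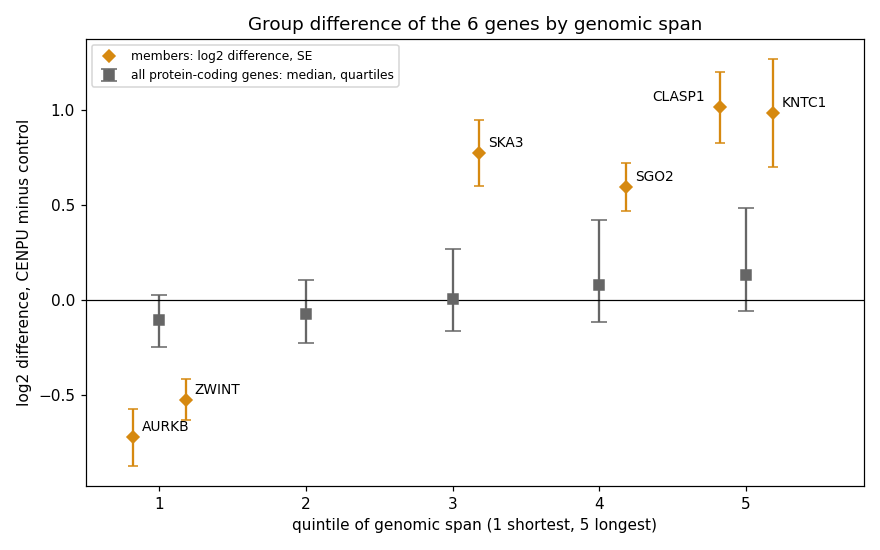
Log2 difference, CENPU minus control clones (y axis), by quintile of genomic span (x axis), with the median and quartiles of all protein-coding genes as grey squares and bars and the 6 genes as orange diamonds with 1 standard error. The 2 lower genes sit in quintile 1 and the 4 higher genes in quintiles 3 to 5.

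The genes most like each of the 6 across clones were taken as the 3 protein-coding genes with the highest Pearson r of group-centred values over the 10 clones, out of 11915. They are descriptions, since all genes share the same clones and the closest were searched for. For CLASP1 they were ZNF266, CSGALNACT2 and DDX6 (r from 0.982 to 0.985), and 790 genes had r over 0.9. For KNTC1 they were GREB1L, NPAS2 and CGGBP1 (0.974 to 0.976, with 340 genes over 0.9), and for SKA3 they were SENP7, EPC2 and MRPL42 (0.986 to 0.991, with 354 over 0.9). AURKB was most like NUP85, a nuclear pore gene (0.973), followed by FNDC1 and KNG1 (0.957 and 0.955), with 24 genes over 0.9. NUP85 was also lower in CENPU clones and passed (log2 difference -0.44, limma adjusted p = 0.0118). SGO2 had ELP3, ARHGEF26 and SRSF5 (0.912 to 0.918, with 3 over 0.9), and ZWINT had LCMT2, BUD13 and NEIL2 (0.886 to 0.897, with 0 over 0.9). CLASP1, KNTC1 and SKA3 thus had far more genes above that level than AURKB, SGO2 and ZWINT.

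The direction of the 6 differences was the same in all alternatives that were run, 20 for each gene and 19 for SGO2, which the filter on dim rows removed. That is a description only, because the genes were chosen by this same comparison. Several alternatives could not move a value. Each gene has 1 row, and filtering or adding other rows, averaging the rows of a gene or a robust eBayes leaves its difference unchanged. For the 4 genes without overlap, leaving out clones cannot turn the direction. CLASP1 ranged from 0.67 without control 2, CENPU 7 and CENPU 13 to 1.11, and KNTC1 from 0.37 in the fit with clone number as a block to 1.22. SKA3 ranged from 0.46, also with that block, to 0.91. For CLASP1, KNTC1 and SKA3, control 2 was the lowest control and CENPU 7 and CENPU 13 the highest CENPU clones. Leaving those clones out together narrows these differences by construction. ZWINT ranged from -0.61 to -0.41, AURKB from -0.84 to -0.58 and SGO2 from 0.42 to 0.66. CLASP1, KNTC1 and SKA3 had the widest ranges.

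**Figure D5:**
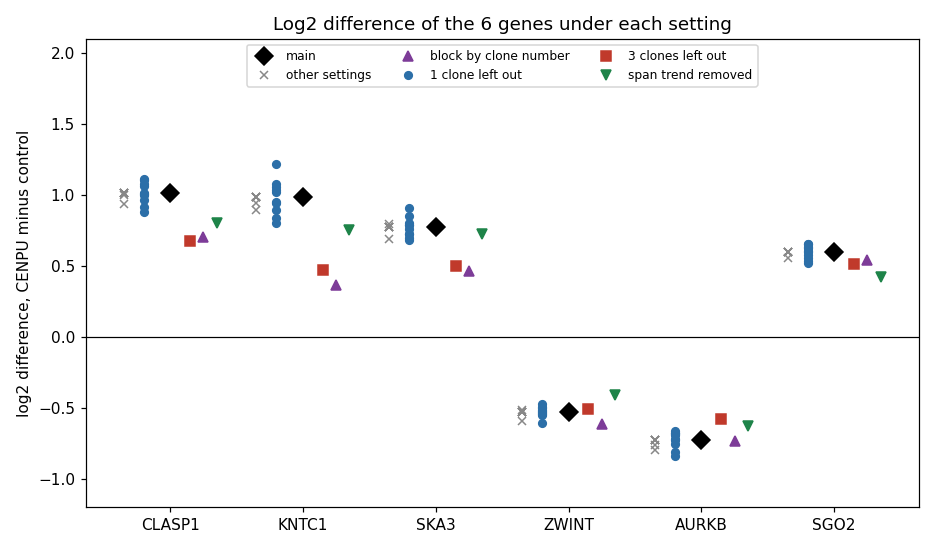
Log2 difference, CENPU minus control clones (y axis), of the 6 genes (x axis) with all clones (black diamond) and under each alternative, coloured by kind. KNTC1 drops to 0.47 without 3 clones, its lowest control and highest CENPU clones, and to 0.37 with the block by clone number. ZWINT stays between -0.61 and -0.41.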

How the data were processed

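RNA of 10 PC-3 clones had been hybridised to 1-channel Affymetrix arrays, 1 per clone. The authors deposited log2 expression values, made with Partek and RMA (background correction, quantile normalization and probe summary) per the submitters' processing notes, which give no versions. That the scale is log2 was read from the values, which lie between 1.65 and 15.0. Arrays have no read depth, so the number of clones, 5 in each group, limits the precision, and RMA removes a change shared by most genes.

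A platform table gave a single gene symbol to 16098 of the 53617 rows, and rows with no symbol or with several were left out. The symbols were brought up to date through their gene IDs with RefSeq (GRCh38.p14), and all 16098 matched. A gene with several rows was represented by the row of highest mean. Genomic span was taken from RefSeq. No source used here gives a genome build for the array. Rows were fitted in limma 3.58.1 under R 4.3.3, by lmFit and eBayes without covariates, with Benjamini-Hochberg adjustment over the 16098 rows and a threshold of 0.05. Standard errors of differences come from this fit and not from the printed SDs. Because eBayes draws variances toward a common value, they are smaller than the SDs give for genes that vary much among clones, such as KNTC1. The fit was also run on simulated data with noise drawn independently for each gene and clone. Such data hold no span trend, so that run cannot show how the fit behaves under one. Each clone is a separate isolate per the labels, and p-values measure the spread among these clones only.

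Genes named beside the 6 were those of each list that passed, the 3 others of smallest p, and the measured subunits of the same complexes. The 6 genes, the lists and the tests were chosen with earlier results of these data known. ESCO2 and the relations after other scalings were added after their values were seen. A planned search for protein motifs was not made.

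Clone numbers 1, 4 and 5 occur in both groups, and a fit with the number as a block was run as an alternative. Other alternatives were quantile normalization, median centring, a filter on rows with a mean under 5, all rows, weights per array, a robust eBayes with a trend, another row per gene, removal of the span trend by loess, and leaving out each clone or 3 clones.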

Additional observations from a re-analysis of the deposited data

Results flagged for a closer look

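In 104 sets of 5 clones (CENPU and the 51 measured list genes, in each group), 9 held a clone farther from the others than Dixon's 95% limit of 0.71 allows, where chance gives about 1 in 20. AURKB was the 1 gene of the 6 among them, through control clone 3 at 9.25, with a gap ratio of 0.713, just past the limit. Control clone 2 was the low clone in 7 of the 9 sets. It read 5.94 for the plus-end protein gene CLIP1, 7.02 for CKAP5, 5.04 for KIF2A, 7.71 for the cohesin subunit gene SMC1A, 5.64 for SMC3, 6.32 for the cohesin release factor WAPL and 5.09 for the cohesin acetyltransferase gene ESCO2. CENPU clone 13 read 4.81 for the kinesin gene KIF2B, below the rest of its group. Without control clone 2, CKAP5 was the 1 of the 45 other list genes that passed in limma.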

How the results depend on the processing

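The count of genes that passed over all 14884 was 1504 with all clones, 470 without control 2, CENPU 7 and CENPU 13, and 613 to 2471 when 1 clone was left out (lowest without control 4, highest without CENPU 1). All called genes of the 8 lists, the 6 chosen genes included, numbered 12 with all clones, 3 without those 3 clones and 5 to 20 without 1 clone. The 45 other list genes gave 6 calls, against 2 without the 3 clones, 1 to 14 without 1 clone, 3 with all rows of the table tested and 10 with array weights. Quantile normalization turned the split of all calls from 791 higher and 713 lower to 754 and 952, and median centring to 585 and 758. The cause of these shifts was not tested, apart from fewer clones or more rows in the fit by construction. CLASP1 moved to 0.67 without the 3 clones, its lowest control and highest CENPU clones, which narrows its difference by construction.

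The replicate block by clone number rests on the 3 numbers both groups share, and the pairing has no basis in the labels. Deviations of same-numbered clones correlated at -0.379, 0.104 and 0.0227 across genes for numbers 1, 4 and 5. With the block, 55 genes passed over all genes and 0 of the list genes did in limma, although 15 of the 45 other list genes had an unadjusted p under 0.05 (33.3%, against 14.8% of all genes). Their median was then -0.02, KNTC1 differed by 0.37 and SKA3 by 0.46.

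Uncalled genes changed sign. SKA2 was -0.33 with the block and -0.18 without the 3 clones, NDEL1 -0.016 and -0.0589, and -0.0058 with the span trend removed, KNSTRN -0.0608 with the block, and SGO1 -0.0866 with the block and -0.00042 without the 3 clones. For SKA2, NDEL1 and SGO1 those 3 clones were the lowest control and the highest CENPU clones, so leaving them out lowers the difference by construction. INCENP ran from -0.119 to 0.0697 when 1 clone was left out. In the within-group relations, median centring left AURKB with BIRC5 at r = 0.808 (exact permutation adjusted p = 0.0632). The row of smallest p gave the same list counts, because each list gene has 1 row.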

Other observations

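ESCO2, which acetylates cohesin in S phase and was taken up after its values were seen, passed between the groups only when control 2, CENPU 7 and CENPU 13 were left out together, among the alternatives run. It read 4.90, 4.92, 5.45, 5.96 and 6.33 in CENPU clones 1, 4, 5, 7 and 13, and 6.28, 5.09, 6.02, 6.18 and 6.06 in control clones 1 to 5. The log2 difference was -0.41 with all clones (limma adjusted p = 0.401) and -1.05 without control 2, CENPU 7 and CENPU 13 (limma adjusted p = 0.0109). Those were the lowest control and the highest CENPU clones for ESCO2, so leaving them out widens its difference by construction. Without 1 clone it ran from -0.62 to -0.26 and passed in 0 of those limma fits, with the span trend removed it was -0.57 (limma adjusted p = 0.128), and with clone number as a block it was -1.08 (limma adjusted p = 0.059).

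Of the 9 checkpoint genes 7 had positive differences, and of the 13 cohesin genes 10, with medians of 0.54 and 0.46 against -0.02 over all named genes. The share of positive differences over all genes was not counted. With clone number as a block, TTK, BUB1 and BUB1B differed by 0.19, 0.05 and 0.11. Without control 2, CENPU 7 and CENPU 13, their lowest control and highest CENPU clones, they differed by 0.26, 0.18 and 0.15, a narrowing by construction.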
